A study of Mus musculus with 244 samples.

Results

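The replication-dependent histone genes of the mouse were followed here through oocytes and somatic cells of primordial to secondary follicles. The set held every gene whose symbol begins with Hist1h, Hist2h, Hist3h or Hist4h and that had values on all 6 library plates. It came to 64 of the 13266 genes listed on every plate. Another 3 genes of these names, *Hist1h2br*, *Hist1h2bq* and *Hist2h3c1*, lacked values on at least 1 plate and were not members. The members encode 6 H1, 18 H2A, 16 H2B, 11 H3 and 13 H4 histones. Of these genes, 52 lie on chromosome 13, 9 on chromosome 3, 2 on chromosome 11 and 1 on chromosome 6.

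The cells came from untreated CD-1 mice, an outbred stock, on postnatal day 6, with 8 to 12 ovaries pooled. Follicles were freed with enzymes, staged by their shape, and taken apart into single oocytes and single somatic cells (pre-granulosa or granulosa cells), each of which gave 1 SMART-Seq2 library. There were 59 oocytes, namely 13 primordial, 19 transitioning, 20 primary and 7 secondary ones by the stage of the follicle. Somatic cells numbered 40, 47, 56 and 42 at the same stages. No animal or collection is named for any cell, so each group counted as 1 sample, and no test could be run between groups. Levels are given as CPM, counts of a gene scaled to a common total over the 13266 genes in each cell or group. All intervals are at 95%. Those of levels and ratios cover the counting error of reads only. They do not allow for reads copied by PCR, which carry no molecular identifier. Intervals of shares of cells take each cell as an independent draw and cover no difference between animals or plates.

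The labels matched the defining markers, although the authors had removed cells with signal of the other cell type by scores that used *Dazl*, *Bmp15*, *Sohlh1*, *Foxl2*, *Amh*, *Inha* and *Fshr*, so this check is not independent of that filter. *Dazl*, *Bmp15*, *Sohlh1* and *Ooep* summed to between 15235 and 30505 CPM in the oocyte groups and to between 147.7 and 1368 CPM in the somatic groups. *Foxl2*, *Amh*, *Inha* and *Fshr* summed to between 7343 and 58476 CPM in somatic groups and to at most 129.2 CPM in oocytes. The stromal genes *Col1a1*, *Col1a2*, *Dcn* and *Lum* were highest in primary (7129 CPM) and primordial somatic cells (6249 CPM), lower in secondary ones (1732 CPM) and near absent from transitioning ones (8.04 CPM). They were at most 11.8 CPM in oocytes. Surface epithelial keratins and *Upk3b* summed to between 341 and 814 CPM in somatic groups and to at most 115.4 CPM in oocytes, and blood cell markers were at or below 57.1 CPM in every group. The part of such cells in the histone values was not tested. Counts per cell ran from 1223 to 489780, with medians of 46686 in oocytes and 29205 in somatic cells. On plate 1, 5 cells carried a stage or time code in the cell metadata that went against the title, and the titles were followed.

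Replication-dependent histone genes are transcribed mainly in S phase, when new DNA must be packed into nucleosomes. Most of their mRNAs end in a stem-loop that binds the stem-loop binding protein SLBP, in place of a poly(A) tail, although longer polyadenylated forms of several are known in cells that no longer divide. Oocytes of these follicles rest in meiotic prophase and copy no DNA, while granulosa cells divide as the follicle grows. SMART-Seq2 primes cDNA on poly(A), and the share of histone mRNA that escaped it was not tested.

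The stem-loop is the feature that sets these mRNAs apart, so it was searched for in the GENCODE M21 transcripts (GRCm38) as a stem of 6 bases opening with GG, a loop of 4 bases with at least 3 T, and the matching stem. It was found in 43 of 64 members, in 7 forms, and the forms found in H4 genes were found in no other histone type. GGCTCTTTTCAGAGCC was the most frequent form, in 24 members of H1, H2A, H2B and H3, followed by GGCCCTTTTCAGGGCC in 7 members, all of them H4. The 8 members below are examples, each among the 12 members with the most counts in oocytes or in somatic cells. Others of those 12 with a stem-loop, such as *Hist1h2ae*, *Hist1h1e* and *Hist1h2bh*, are not shown. The capitals mark the stem-loop, and each line is written on the strand of the gene.
Hist1h1c: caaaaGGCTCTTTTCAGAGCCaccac
Hist1h2ap: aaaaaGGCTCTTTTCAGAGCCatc
Hist3h2a: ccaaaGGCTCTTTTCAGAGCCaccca
Hist3h2ba: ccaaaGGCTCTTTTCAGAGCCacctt
Hist2h3c2: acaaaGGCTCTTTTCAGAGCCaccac
Hist1h3e: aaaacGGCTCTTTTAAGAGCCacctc
Hist1h4i: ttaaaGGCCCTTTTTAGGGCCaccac
Hist1h4d: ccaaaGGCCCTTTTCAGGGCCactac
These windows lie in the 3′ untranslated regions at chr13:23739507-23739532 (plus strand), chr13:21833026-21833049 (minus), chr11:58955167-58955192 (plus), chr11:58949344-58949369 (plus), chr3:96238480-96238505 (minus), chr13:23561898-23561923 (minus), chr13:22040961-22040986 (minus) and chr13:23581945-23581970 (plus), in the order given. The transcript of *Hist1h2ap*, a gene for a core H2A, stops 3 bases after the stem-loop. Those of *Hist1h4i*, *Hist2h3c2*, *Hist1h1c* and *Hist3h2a* run on for 330, 377, 840 and 1643 bases. No stem-loop was found in the transcripts of *Hist1h2bc* and *Hist2h2be*, H2B genes that differed much between the cell types.

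Many members resemble each other closely. In 34 of 64 members, over 50% of the 35-base words of the transcript also occurred in another histone transcript, and the median share was 52.2%. *Hist1h2ap* shared 93.3% of its words and *Hist2h3c2* 64.1%, against 5.7% for *Hist3h2ba*, 2.9% for *Hist3h2a* and 1.2% for *Hist2h2be*. Of the histone values above 0, 50.0% were not whole numbers (beyond 0.001), against 23.6% over all genes, as where reads are divided among copies. Values of close copies such as *Hist1h2ap* and *Hist1h2ao*, or *Hist2h2aa1* and *Hist2h2aa2*, are therefore uncertain as to the single gene.

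Promoters of 58 members were matched in the RefSeq table (GRCm38.p6), 250 bases before to 50 after the start of transcription. Each motif was sought on both strands. The letters TATAAA, the core of a TATA box, occurred in 35 (60.3%), against 13.6% of all 32851 promoters of that length. CCAAT occurred in 49 (84.5%), against 37.4% of all, and was missing mostly from H4, where 3 of 12 promoters held it. ATTTGCAT, the octamer known from H2B promoters, occurred in 13 (22.4%) against 1.7% of all, in 7 of 17 H2A and 6 of 14 H2B promoters and in none of the 27 others. Windows of neighbours that start in opposite directions can overlap, as those of *Hist1h2ae* and *Hist1h2bg* do. A single site can then count for both genes, so the 13 are not 13 separate sites. The stretch shared by *Hist1h2ba* and *Hist1h2aa* is shown because both genes stood higher in pooled oocytes. It is 250 of the 280 bases between their starts, at chr13:23934187-23934436 on the plus strand, with *Hist1h2ba* to its left on the minus strand and *Hist1h2aa* to its right on the plus strand. Capitals mark the 2 TATA, 4 CCAAT and 1 octamer matches.
Hist1h2ba and Hist1h2aa: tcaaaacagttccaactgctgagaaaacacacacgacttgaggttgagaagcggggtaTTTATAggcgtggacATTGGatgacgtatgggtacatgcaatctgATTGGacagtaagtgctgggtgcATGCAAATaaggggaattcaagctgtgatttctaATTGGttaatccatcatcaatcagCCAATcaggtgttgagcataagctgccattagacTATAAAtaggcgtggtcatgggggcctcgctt

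Every oocyte held histone counts, whereas somatic cells ran from none to far above any oocyte. Summed over the 64 genes, oocytes ranged from 273 to 9932 CPM per cell with a median of 1152 CPM, and somatic cells from 0 to 104695 CPM with a median of 1250 CPM. By stage, the median oocyte stood at 1382 CPM in primordial follicles, then at 1441 CPM and 1282 CPM at the transitioning and primary stages, and at 594 CPM in secondary follicles. The median somatic cell stood at 758, 1058, 955 and 2045 CPM at the same stages. The secondary stage was thus the lowest of the oocyte medians and the highest of the somatic ones, but stages were spread unevenly over plates. With the counts of a group pooled, oocytes gave 1133 (1094 to 1173), 1571 (1521 to 1623), 989 (935 to 1046) and 655 (556 to 766) CPM. Somatic cells gave 2771 (2680 to 2864), 2287 (2234 to 2341), 2248 (2192 to 2306) and 3391 (3279 to 3506) CPM. All 59 oocytes had a count of at least 1 member, against 39 of 40 primordial (97.5%, exact binomial interval 86.8 to 99.9), 46 of 47 transitioning, 52 of 56 primary and 41 of 42 secondary somatic cells. After thinning each cell to 12000 counts, which kept 55 oocytes, the median oocyte held counts of 6, 6.5, 5 and 3 members by stage. The median somatic cell held counts of 2.5, 3, 4 and 7 members.

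**Figure D1:**
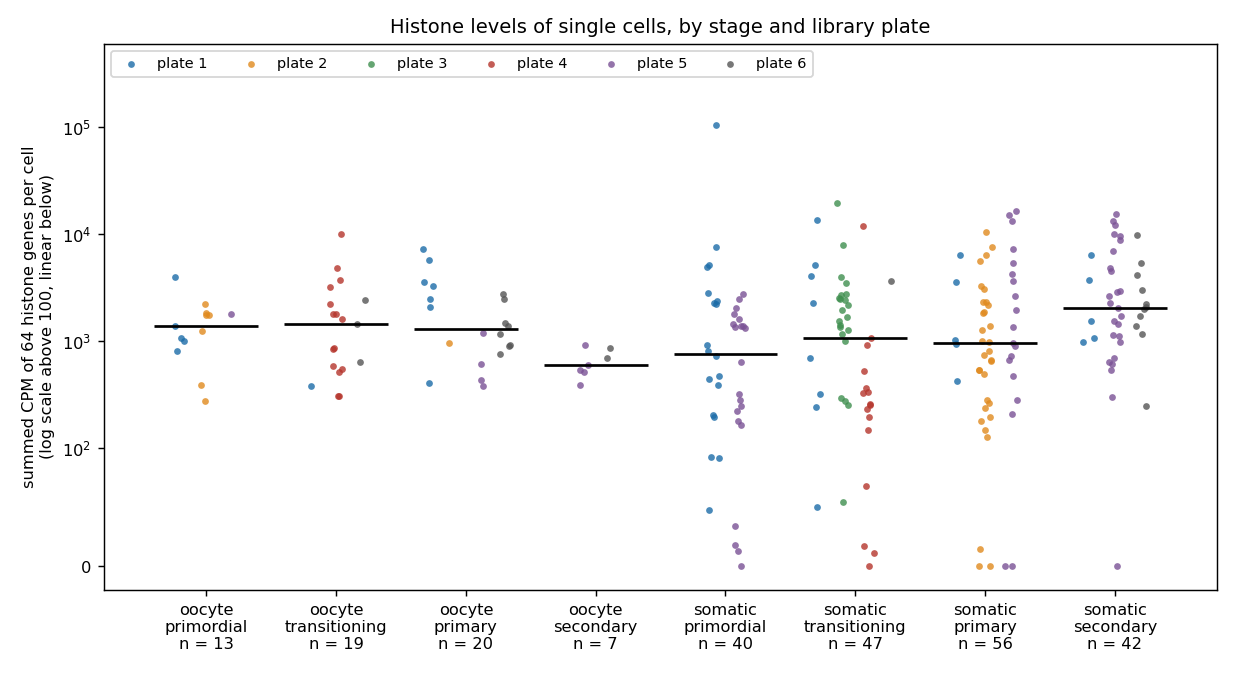
Summed CPM of the 64 histone genes in each of the 59 oocytes and each somatic cell, by stage; each point is a cell coloured by library plate, the black line is the group median, and the axis is logarithmic above 100 CPM and linear below. Oocytes lie between 273 and 9932 CPM, while 7 somatic cells are at 0 and 12 lie above the highest oocyte.

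A few somatic cells carried much of the somatic signal. The 12 somatic cells (6.5%, interval 3.4 to 11.1) above the highest oocyte held 40.4% of all somatic histone counts. A primordial somatic cell of plate 1 (replicate 15) stood alone at 104695 CPM, with 2105 of its 20104 counts from histone genes, 61.9% of them from *Hist1h2ap*. That cell held 10.5% of all somatic histone counts, and without it primordial somatic cells fell to 1121 CPM. *Hist1h2ap* led in the 5 such cells of plates 1 to 4, and *Hist2h3c2*, an H3 gene, in all 7 of plate 5, where it made up 39.7% to 56.3% of histone counts. *Hist1h1b*, the H1 gene for linker histone H1.5, was present in 9 of these 12 cells and in 25 of the other somatic cells. These cells held counts of a median of 17 members, at a median depth of 20224 counts against 29706 in the other somatic cells. The 12 cells were picked by a sum that includes *Hist1h1b* and every other member. Their share with *Hist1h1b* and their number of members therefore follow in part from that choice. They made up 3 of 19 primary (15.8%, interval 3.4 to 39.6) and 4 of 26 secondary somatic cells (15.4%, 4.4 to 34.9) of plate 5, and 0 of the 21 primordial ones of that plate.

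Oocytes and somatic cells met on 5 plates, and the direction of their difference was not the same on all of them. Pooled histone counts were lower in oocytes on plates 1, 2, 5 and 6 and higher on plate 4. The median cell gave another order, with oocytes above somatic cells on plates 1, 2 and 4 and below them on plates 5 and 6. The median gene of these comparisons was itself lower in oocytes, by 0.50 to 2.92 on the log2 scale. TMM and DESeq2 factors, which remove such shifts, raised the log2 ratios over all stages of a plate by 0.24 to 1.57 and 0.46 to 1.75, so negative ratios smaller than these turned positive with them.

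On plate 1, the 5 primordial oocytes ranged from 809 to 3982 CPM (median 1070) and the 19 primordial somatic cells from 47.1 to 104695 CPM (median 802). The oocyte at 3982 CPM held 8 histone counts among 2009 in total. The pooled levels were 1033 and 6182 CPM, a log2 ratio of -2.58 (-2.73 to -2.43), and -0.93 without the somatic cell that held 69.5% of its group's histone counts. The 7 primary oocytes of plate 1 ranged from 402 to 7281 CPM (median 3231) and the 5 primary somatic cells from 422 to 6280 CPM (median 1018). Their log2 ratio of -1.67 (-1.84 to -1.49) became -0.05 without the oocyte with the most histone counts, -0.90 without the somatic cell with the most, and 0.72 without both. That oocyte had the lowest histone level of its group, 402 CPM, but held 336765 of the group's 429201 counts in total. Without it the pooled level of the primary oocytes was 2830 CPM. The oocyte at 7281 CPM held 9.14 histone counts among 1255 in total. On plate 2 the stages differed, with 7 primordial oocytes and 1 primary oocyte against primary somatic cells alone. The 8 oocytes ranged from 273 to 2195 CPM (median 1487) and the 32 somatic cells from 0 to 10499 CPM (median 766). Pooled levels of 1109 and 1864 CPM gave -0.75 (-0.82 to -0.68), which turned to 0.82 with TMM factors and further up with DESeq2 factors.

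Plate 4 held transitioning cells alone. Its 15 oocytes ranged from 300 to 9932 CPM (median 1592) and its 16 somatic cells from 0 to 11856 CPM (median 254). The pooled levels of 1772 and 1109 CPM gave a log2 ratio of 0.68 (0.59 to 0.76). It was 0.02 without 1 oocyte that held 41.1% of its group's histone counts, and 2.38 without 1 somatic cell that held 71.4%. At the secondary stage of plate 5, the 5 oocytes stood between 387 and 907 CPM (median 534) and the 26 somatic cells between 0 and 15369 CPM (median 2136). Pooled levels of 606 and 4295 CPM gave -2.83 (-3.14 to -2.54), between -3.04 and -2.73 without the cell with the most histone counts of either group. On plate 6 most oocytes were primary and 11 of 12 somatic cells secondary. Its 13 oocytes ranged from 633 to 2756 CPM (median 1152) and the somatic cells from 242.8 to 9812 CPM (median 2124), with a log2 ratio of -1.16 (-1.33 to -0.98), and -0.14 with TMM factors.

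**Figure D2:**
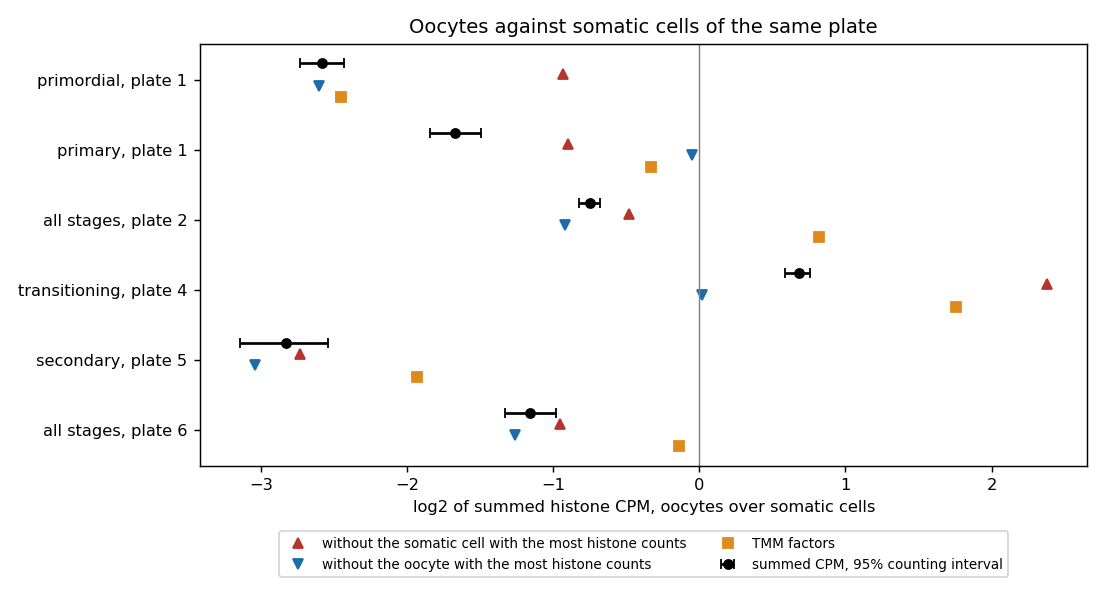
Log2 ratio of pooled histone CPM, oocytes over somatic cells of the same plate, with the 95% counting interval (black), without the cell with the most histone counts of either group (triangles) and with TMM factors (squares). The ratio at the secondary stage of plate 5 is -2.83; that of plate 2 turns from -0.75 to 0.82 with TMM factors, and that of plate 4 moves from 0.68 to 2.38 without 1 somatic cell.

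Single genes were compared in the same groups. A member was called where its level differed at least 2-fold, among members with at least 5 CPM in either group and 4 counts. A gene without counts in a group was set to a floor of 3 counts over the group and called only where the resulting bound reached 2-fold. In primordial cells of plate 1, 2 of 32 members were higher in oocytes and 20 lower, against 34.9% and 43.5% of all 3569 genes. Without the cell with the most histone counts of each group, 3 of 30 were higher and 14 lower, against 35.2% and 42.3%. The share called lower was then near that of all genes. In primary cells of plate 1, 4 of 24 were higher and 15 lower, against 22.9% and 53.7%. On plate 2, 13 of 37 were higher and 21 lower, against 19.8% and 68.6%. On plate 4, 14 of 24 were higher and 7 lower, against 26.4% and 59.5%. At the secondary stage of plate 5, 1 of 40 was higher and 19 lower, against 10.2% and 43.2%. On plate 6, 1 of 31 was higher and 26 lower, against 19.0% and 58.4%. The share of members called higher was above the background on plates 2 and 4 and below it in the other 4 comparisons. The median member stood at -1.76 in primordial and -1.82 in primary cells of plate 1, -1.50 on plate 2, 1.36 on plate 4, -0.91 at the secondary stage of plate 5 and -2.57 on plate 6.

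The histone types took different shares of the signal. H2A made up 49.5% of the histone counts of somatic cells and 26.2% of those of oocytes, and H2B made up 10.1% and 30.6%. H1 (15.2% and 14.7%), H3 (17.6% and 17.8%) and H4 (7.6% and 10.8%) had more similar shares. Within oocytes, H2B took 48.3% at the primordial stage and 16.9%, 26.2% and 25.7% at the later ones, while H3 took 6.5% at the first and 33.1% at the last of these stages. These shares also moved with the plate. H2B took 55.4% of oocyte histone counts on plate 2, which held most primordial oocytes, and 10.9% on plate 6. On plate 1, where 5 primordial and 7 primary oocytes met, H2B took 7.9% and 22.7%, the opposite order to the pooled stages. It took 15.8% in 4 primary and 29.6% in 5 secondary oocytes of plate 5.

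**Figure D3:**
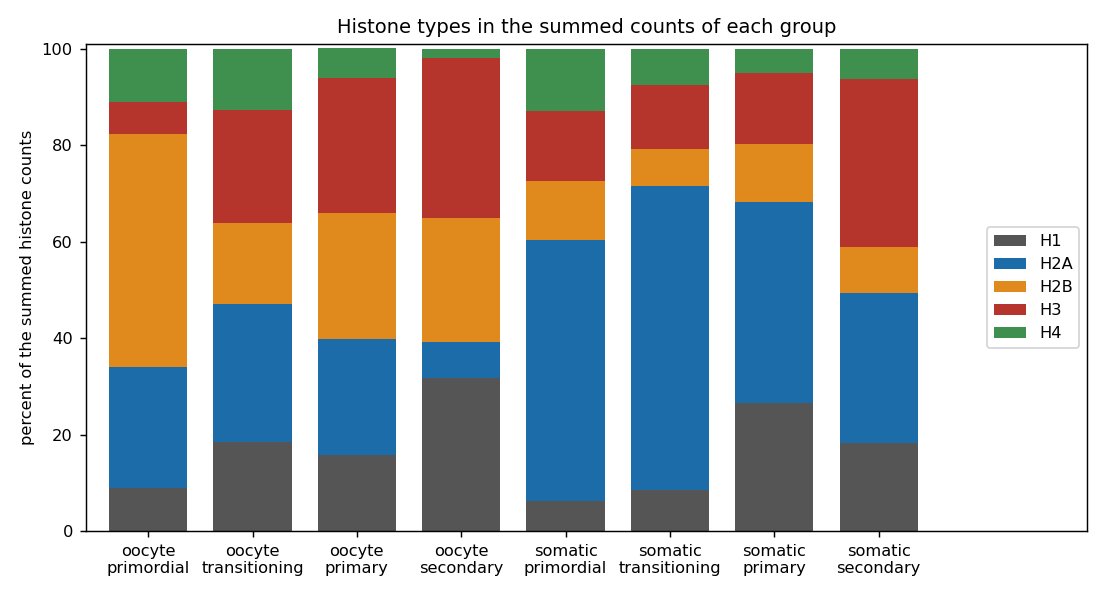
Shares of H1, H2A, H2B, H3 and H4 in the pooled histone counts of each cell type and stage, in percent; each bar sums to 100. H2A takes 30.9% to 63.1% in the somatic groups and 7.5% to 28.6% in the oocyte groups, and H2B reaches 48.3% in primordial oocytes.

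Within plates, the types did not move together. At the secondary stage of plate 5, oocytes were lower for H2A by 4.25 on the log2 scale (54.2 against 1034 CPM), for H4 by 3.72 (18.3 against 240.8 CPM), for H3 by 3.31 (177.1 against 1761 CPM) and for H1 by 2.34 (176.8 against 894 CPM). H2B differed least, 179.3 against 366 CPM, a log2 ratio of -1.03 (-1.67 to -0.48) that DESeq2 factors brought just above 0. On plate 2, H2B was higher in oocytes, 615 against 208.3 CPM (1.56, interval 1.41 to 1.72), while H2A was lower, 182.6 against 954 CPM (-2.39, -2.53 to -2.24). On plate 4, H1 (3.18) and H4 (3.17) were higher in oocytes, though 1.97 and 2.14 without 1 oocyte and 4.25 and 3.53 without 1 somatic cell. H2A there stood at -0.38, which turned positive with TMM or DESeq2 factors and was 1.69 without 1 somatic cell. On plate 6, H3 stood at 0.31 (0.02 to 0.59) and H4 at -4.52 (-5.77 to -3.48).

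Few members carried each cell type. The leading 5 members made up 61.9% of the oocyte counts and 63.6% of the somatic ones, and 5 genes were shared between the leading 12 of both. Per kilobase of transcript, *Hist1h2ap* was the highest member in both, at 311 CPM per kb in oocytes and 1820 CPM per kb in somatic cells. *Hist1h2bc*, an H2B gene, was next in oocytes at 199.4 CPM per kb and 12th in somatic cells at 56.5 CPM per kb. *Hist2h3c2* followed in oocytes at 165.4 CPM per kb and was next to *Hist1h2ap* in somatic cells at 260 CPM per kb. Of the 64 members, 59 had a count in some oocyte and 62 in some somatic cell, and *Hist2h2ab* had none in any cell.

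Across the 5 plates with both cell types, 18 members could be compared on each plate. *Hist3h2ba*, an H2B gene on chromosome 11, was at least 2-fold higher in oocytes on all 5. The H2A genes *Hist1h2ab*, *Hist1h2ae* and *Hist3h2a* and the H2B gene *Hist2h2be* were at least 2-fold lower on all 5. Over all 1908 genes compared so, 10.9% were higher and 33.9% lower on each plate. With TMM or DESeq2 factors, *Hist3h2ba* was again the 1 member higher, and *Hist1h2ae* and *Hist2h2be* were the 2 lower, against 16.9% and 23.9% of all genes with TMM and 19.0% and 21.2% with DESeq2 factors. Many of these calls rested on 1 cell. Leaving out the oocyte or the somatic cell with the most counts of a gene took 9 to 13 of the 21 to 34 members called on a plate under 2-fold. The same was not counted over all genes, so it shows nothing particular to histone genes. None of the 5 genes called on all plates kept all 5 calls. *Hist3h2ba* fell to 0.27 on plate 5 without 1 oocyte, and *Hist1h2ae* there to a bound of -0.64. *Hist1h2ab* stood at 0.21 on plate 1 without 1 somatic cell and gave no value on plates 4 and 6.

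**Figure D4:**
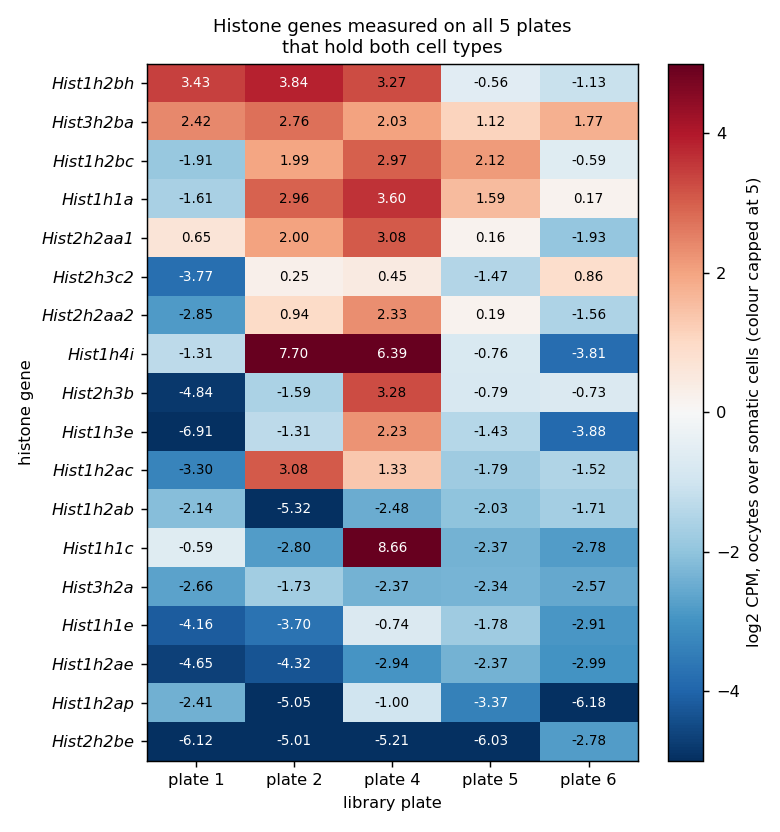
Log2 ratio of CPM, oocytes over somatic cells, for the 18 histone genes compared on all 5 plates that hold both cell types, sorted by their median; a ratio against a group without counts is a bound, and the colour scale stops at 5 in either direction. *Hist3h2ba* lies between 1.12 and 2.76 on every plate and *Hist2h2be* between -6.12 and -2.78, and TMM or DESeq2 factors turn neither.

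*Hist3h2ba* and *Hist3h2a* are neighbours on chromosome 11 that went opposite ways. *Hist3h2ba* stood at 11.2, 89.6, 39.8, 10.8 and 32.8 CPM in oocytes of plates 1, 2, 4, 5 and 6, and at 0, 13.3, 9.78, 4.97 and 9.63 CPM in somatic cells. The log2 ratios were at least 2.42 on plate 1, then 2.76, 2.03, 1.12 (-1.06 to 3.02) and 1.77 (-0.36 to 4.95), so the counting intervals of plates 5 and 6 held 0. It was read in 32 of 59 oocytes and in 10 somatic cells (5.4%). *Hist3h2a* stood at 29.2, 40.8, 20.2, 24.3 and 21.1 CPM in oocytes and at 183.8, 135.1, 104.1, 123.6 and 125.2 CPM in somatic cells. Its log2 ratios were -2.66, -1.73, -2.37, -2.34 and -2.57, of which DESeq2 factors brought that of plate 2 to 0.02. Without 1 somatic cell they were -0.97 on plate 2 and -0.34 on plate 6. The median oocyte held between 0 and 29.9 CPM of *Hist3h2a* on the 5 plates, and the highest somatic cell of each plate held between 502 and 1892 CPM.

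Other H2B genes split between the cell types as well. *Hist1h2bc* was read in 45 of 59 oocytes (76.3%) and in 26 somatic cells (14.1%). On plate 2 its 8 oocytes ranged from 33.4 to 990 CPM (median 376) and its 32 somatic cells from 0 to 1843 CPM (median 0). Its log2 ratios were 1.99, 2.97 and 2.12 on plates 2, 4 and 5 but -1.91 on plate 1 and -0.59 on plate 6, the last of which turned positive with TMM or DESeq2 factors. Without 1 somatic cell, plate 1 stood at -0.93 and plate 6 at 2.64. *Hist1h2bh* was higher in oocytes on plates 1, 2 and 4 (3.43, 3.84 and 3.27) and stood at -0.56 and -1.13 on plates 5 and 6, the last of which was 1.18 without 1 somatic cell. On plate 5 it was -1.93 without 1 oocyte. *Hist2h2be* was at most 2.70 CPM in oocytes of any plate, in 3 of 59 oocytes. It reached 48.2 to 178.9 CPM in somatic cells of the 5 plates, with log2 ratios from -6.12 to -2.78. Its somatic counts came from 4, 3, 1, 13 and 1 cells of plates 1, 2, 4, 5 and 6, so those of plates 4 and 6 rest on a single cell.

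Among H2A genes, *Hist1h2ap* alone gave 35.2% of the somatic histone counts. It was read in 96 somatic cells (51.9%) and in 19 of 59 oocytes (32.2%). On plate 1 its oocytes ranged from 0 to 4006 CPM (median 1010) and its somatic cells from 0 to 64787 CPM (median 88.1). The log2 ratios of its pooled levels were -2.41, -5.05, -3.37 and -6.18 on plates 1, 2, 5 and 6. A single somatic cell held 47.7% of the somatic counts of plate 1, and without it the somatic level there was 1007 CPM and the ratio -1.49. A single oocyte held 67.9% of the oocyte counts of plate 2, where the ratio was -6.66 without it, and 1 oocyte held all those of plates 5 and 6. On plate 4 it was lower in oocytes too, 260 against 520 CPM, but this turned positive with TMM or DESeq2 factors. A single somatic cell held 93.5% of the somatic counts there, and without it the somatic level was 35.9 CPM and the log2 ratio 2.86. It was at 0 in all 7 secondary oocytes, too few cells to set a narrow limit, and had a count in 26 of 42 secondary somatic cells (61.9%). *Hist1h2ae* was at 0 in oocytes of plates 2, 4 and 6 and stood at 11.9 to 237.7 CPM in somatic cells of the 5 plates. The H2A gene *Hist2h2aa1* (66.3 against 23.96 CPM) and its copy *Hist2h2aa2* (48.04 against 19.2 CPM) stood higher in pooled oocytes than in pooled somatic cells, but not on every plate. The log2 ratios of *Hist2h2aa1* were 0.65, 2.0, 3.08, 0.16 and -1.93 on plates 1, 2, 4, 5 and 6, and those of *Hist2h2aa2* were -2.85, 0.94, 2.33, 0.19 and -1.56. Without 1 somatic cell *Hist2h2aa2* stood at 0.35 on plate 1 and -0.28 on plate 6, and without 1 oocyte both genes were negative on plate 5.

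*Hist1h2aa* and *Hist1h2ba*, genes for H2A and H2B forms known from the testis, both stood higher in pooled oocytes. *Hist1h2aa* had 59 counts in 15 of 59 oocytes and 0 in all somatic cells, which allows up to 0.373 CPM and a count in up to 1.62% of cells. That is no limit on the share of cells that express the gene, since a weak gene can go uncounted in a shallow library. Pooled over all plates, it was at least 23.9-fold higher in oocytes, at 8.91 CPM. Its counts came from oocytes of all 5 plates, 44 of them from 5 oocytes of plate 2, with 4.29, 16.2, 3.10, 2.70 and 7.02 CPM on plates 1, 2, 4, 5 and 6. *Hist1h2ba* stood at 2.88 CPM (1.74 to 4.50) in oocytes and 0.46 CPM in somatic cells, a log2 ratio of 2.65 (0.94 to 4.54) with 7 oocytes and 4 somatic cells that held it. It was at 0 in oocytes of plates 1, 4 and 5. *Hist1h1t*, the linker histone of spermatocytes, was at 0 in all oocytes and had 7 counts in 1 somatic cell.

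Linker histone H1 was split in the same manner. *Hist1h1b* had no count in any of the 59 oocytes, which allows up to 0.453 CPM and a count in up to 5.08% of oocytes, with no limit on the share that express it, and 339 counts in 34 somatic cells. It was present in 3 of 40 primordial (7.5%, interval 1.6 to 20.4), 6 of 47 transitioning (12.8%, 4.8 to 25.7), 11 of 56 primary (19.6%, 10.2 to 32.4) and 14 of 42 secondary somatic cells (33.3%, 19.6 to 49.5). At 12000 counts a cell, the shares were 5.9%, 6.4%, 18.4% and 29.7%. *Hist1h1e*, for linker histone H1.4, was lower in oocytes on plates 1, 2, 5 and 6 (-4.16, -3.70, -1.78 and -2.91). It stood at -0.74 on plate 4, which turned positive with TMM or DESeq2 factors and was 0.53 without 1 somatic cell. *Hist1h1a* was higher in oocytes on plates 2, 4 and 5 (2.96, at least 3.60 and 1.59), lower on plate 1 (-1.61, and -0.59 without 1 somatic cell) and at 0.17 on plate 6. It was read in 33 of 59 oocytes and 26 somatic cells. *Hist1h1c*, for H1.2, stood at -0.59, -2.80, 8.66, -2.37 and -2.78, and that of plate 1 turned positive with the factors and was 0.45 without 1 somatic cell. The value of plate 4 set 548 oocyte counts against 1 somatic count, with an interval of 6.18 to 13.97, and 1 transitioning oocyte held 46.5% of all oocyte counts of the gene.

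The H3 gene *Hist2h3c2* was the member read in most oocytes, 49 of 59 (83.1%), against 74 somatic cells (40.0%). Its place in the histone counts moved with the plate in both cell types. It made up 63.2% of oocyte histone counts on plate 6 and 35.2% on plate 5, but 1.4% on plate 1 and 3.2% on plate 2. In somatic cells it made up 32.5% on plate 5 and 3.4% on plate 1, while *Hist1h2ap* made up 36.1% to 46.9% on plates 1 to 4 and 14.5% and 12.4% on plates 5 and 6. All 13 oocytes of plate 6 held *Hist2h3c2*, up to 2295 CPM (median 655), and 9 of 12 somatic cells did, from 0 to 3109 CPM (median 197.6). Its log2 ratios were -3.77, 0.25, 0.45, -1.47 and 0.86. On plate 4, 1 somatic cell held 94.4% of the somatic counts, and the ratio was 4.50 without it and -0.03 without 1 oocyte. On plates 1 and 6 it was -2.05 and 1.46 without 1 somatic cell.

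Among H4 genes, *Hist1h4i* led in oocytes with 73.8% of their H4 counts and *Hist1h4d* in somatic cells with 39.5%. *Hist1h4i* was read in 32 of 59 oocytes (54.2%) and 16 somatic cells (8.6%). On plate 4 its 15 oocytes ranged from 0 to 1551 CPM (median 54.2) and all 16 somatic cells were at 0, a log2 ratio of at least 6.39. On plate 2, 278 oocyte counts stood against 1 somatic count, with a log2 ratio of 7.70 (5.21 to 13.01). Plates 1, 5 and 6 gave -1.31, -0.76 and -3.81. On plate 1, 1 somatic cell held 90.1% of the somatic counts, and the ratio was 1.92 without it. Of the oocytes, 14.3% of the secondary ones and 73.7% of the transitioning ones held it. *Hist1h4d* was at 0 in all 7 secondary oocytes and was present in 25 of 42 secondary somatic cells (59.5%).

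Somatic cells of plate 5 were the largest group in which stages met on a plate. Histone genes were higher in primary than in primordial somatic cells there, at every histone type but H2B. The 21 primordial cells ranged from 0 to 2723 CPM (median 638) and the 19 primary cells from 0 to 16403 CPM (median 1353), so the groups overlapped. Pooled levels of 608 and 4116 CPM gave a log2 ratio of 2.76 (2.60 to 2.91), 2.43 to 2.92 without the cell with the most histone counts of either group, and 1.69 with TMM factors. The pooled primordial level leans on deep cells with few histone counts. Replicates 29, 39 and 40 held 28, 2 and 2 histone counts. Their totals were 87884, 114349 and 161324, of 772445 counts in the primordial group. The ratio without these cells was not computed. *Hist1h1b*, which is described above, went from 2 counts in 1 of 21 cells to 36 counts in 6 of 19 cells, a ratio of 5.49 with an interval of 3.53 to 8.59. *Hist2h3c2* went from 79.7 to 1502 CPM (4.24, 3.84 to 4.63), *Hist1h4d* from 9.06 to 161.5 CPM (a log2 ratio of 4.16) and *Hist1h2ap* from 61.7 to 785 CPM (3.67, 3.21 to 4.14). *Hist3h2a* (2.57) and *Hist1h1e* (82.9 to 234.1 CPM) moved less, and *Hist2h2be* stood at -0.38 (-0.93 to 0.15), with all its primary counts from 1 cell. Of 30 members, 24 were at least 2-fold higher in primary cells and 0 lower, against 41.4% and 21.3% of all genes. The median member stood at 2.72 and the median gene at 0.44. By type the ratios were 4.09 for H3, 3.21 for H4, 3.20 for H2A and 1.86 for H1. H2B stood at 0.40 (-0.01 to 0.81) and at -0.58 without the primary cell with the most H2B counts, and TMM or DESeq2 factors turned it negative.

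From primary to secondary somatic cells of plate 5 the summed level moved little. The 26 secondary cells gave 4295 CPM pooled, a log2 ratio of 0.06 (-0.04 to 0.16) that was -0.04 to 0.39 without the cell with the most histone counts of either group, and a median of 2136 CPM. H1 stood at 0.79 (0.52 to 1.05) and H4 at -0.67 (-1.04 to -0.30). *Hist1h1b* was present in 10 of these 26 cells. On plate 1, the stages of somatic cells turned on single cells. Transitioning against primordial cells gave -0.24 (-0.32 to -0.15), but 1.42 without the primordial cell of 104695 CPM and -1.79 without the transitioning cell with the most histone counts. Primary against transitioning cells gave -0.84 (-0.96 to -0.72), and 0.72 without the transitioning cell with the most histone counts. Secondary against primary cells gave -0.35 (-0.49 to -0.20), and 0.42 without the primary cell with the most histone counts.

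With at least 5 cells required in each group, oocyte stages could be compared only on plate 1, between 7 primary and 5 primordial oocytes. Pooled levels of 925 and 1033 CPM gave -0.16 (-0.36 to 0.04), and 1.45 without the primary oocyte that held the most histone counts. That oocyte had the lowest histone level of the primary ones, 402 CPM, and by far the most counts in total, 336765. With TMM factors the ratio was 0.87. *Hist1h2bh* was higher in primary oocytes (118.6 against 6.96 CPM, 4.09 with an interval of 2.41 to 6.36, and 1.64 without the primary oocyte that held 96.1% of the counts), as was *Hist1h2bc* (68.4 against 12.3 CPM, 2.48, 1.10 to 4.21). *Hist1h4d* stood at -3.43 (-8.81 to -0.56) on 1 primary count. Of 20 members, 7 were at least 2-fold higher and 4 lower in primary oocytes, against 11.7% and 55% of all genes. Summed histone CPM ran against depth in these libraries, with a Spearman correlation of -0.97 with total counts over the 13 oocytes of plate 1. It was -0.59 over the 13 of plate 6 and 0.81 over the 10 of plate 5.

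The annotated ends of the transcripts were compared because SMART-Seq2 needs a poly(A) tail. Members fell into 22 whose transcript ends within 100 bases of the stem-loop, 21 that run on further, and 21 in which no stem-loop was found. The long ones gave 49.7% of oocyte and 45.7% of somatic histone counts, the short ones 23.5% and 40.6%, and those without a stem-loop 26.8% and 13.7%. *Hist1h2ap* made up most of the short group. Without it, the short ones gave 13% of oocyte and 8.3% of somatic counts, and the long ones 56.5% and 70.6%. A transcript model that stops near the stem-loop may be incomplete, and polyadenylation of the reads was not tested.

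Of the factors that make histone mRNA or carry histones, few had values on every plate. *Cpsf2*, a subunit of the complex that cuts the 3′ end, was lower in oocytes on all 5 plates (-1.81 to -0.23), and TMM or DESeq2 factors turned those of plates 2 and 6. *Slbp* had values only on plate 1 of those with both types, at 1464 CPM in oocytes and 1170 CPM in somatic cells. *Chaf1a*, of the chaperone complex that loads new histones behind the replication fork, stood at -0.05 on plate 1, which turned positive with the factors, and at 1.05 to 4.38 on the other 4. Of the replacement histones, which are made outside S phase, *H2afy2* was lower on all 5 plates (-6.24 to -3.97), *H1f0* stood between -3.58 and -0.23 and *H2afx* between -1.59 and 1.18. On plate 1, 0 of 4 genes of histone mRNA synthesis and 3′ ends were at least 2-fold higher in oocytes and 1 lower, 0 and 2 of 9 chaperones, 1 and 3 of 4 replacement histones, 1 and 7 of 14 S phase genes, and 1 and 5 of 14 G2 and M phase genes. All genes that plate lists gave 25.2% and 49.6%. On plate 5 the counts were 2 and 0 of 4, 3 and 1 of 5, 0 and 3 of 4, 3 and 0 of 7 and 5 and 0 of 7, against 18.3% and 45.9%.

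Somatic cells with more transcripts of G2 and M phase genes tended to hold more histone counts on plate 5. Over its 66 somatic cells, histone CPM and the summed CPM of 7 genes of G2 and M phase (*Ccnb2*, *Ube2c*, *Cks2*, *Nusap1*, *Kif11*, *Kif20a* and *Ndc80*) had a Spearman correlation of 0.54. It was 0.47, 0.64 and 0.63 within the primordial, primary and secondary cells. The cells of a plate share their preparation and the total to which both values are scaled. With total counts, histone CPM had a Spearman correlation of 0.02 over the 66 cells. It was -0.31, 0.39 and 0.31 within the primordial, primary and secondary ones. What part depth, or oocyte transcripts in the somatic libraries, had in the correlation with G2 and M phase genes was not tested. Of the 7 genes, 5 were at least 2-fold higher in oocytes than in somatic cells of plate 5 and 0 lower. Their transcripts were thus not confined to dividing cells. In the 13 primary cells with a count of these genes the median histone level was 2626 CPM, against 688 CPM in the 6 without. In secondary cells it was 2750 CPM in 22 cells with and 1016 CPM in 4 without. All 21 primordial cells had a count of these genes, and their median histone level was 638 CPM. The correlations on plates 1, 2, 3, 4 and 6 were 0.25, 0.45, 0.36, -0.14 and 0.29 over 37, 32, 22, 16 and 12 somatic cells, with 14, 7, 14, 7 and 5 genes listed. With S phase genes, the correlation was 0.55 on plate 3 and between -0.05 and 0.23 on the other 5 plates. Oocytes gave correlations with the G2 and M phase genes too. These were 0.40, 0.61, 0.05 and 0.05 over 13, 15, 10 and 13 oocytes of plates 1, 4, 5 and 6.

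**Figure D5:**
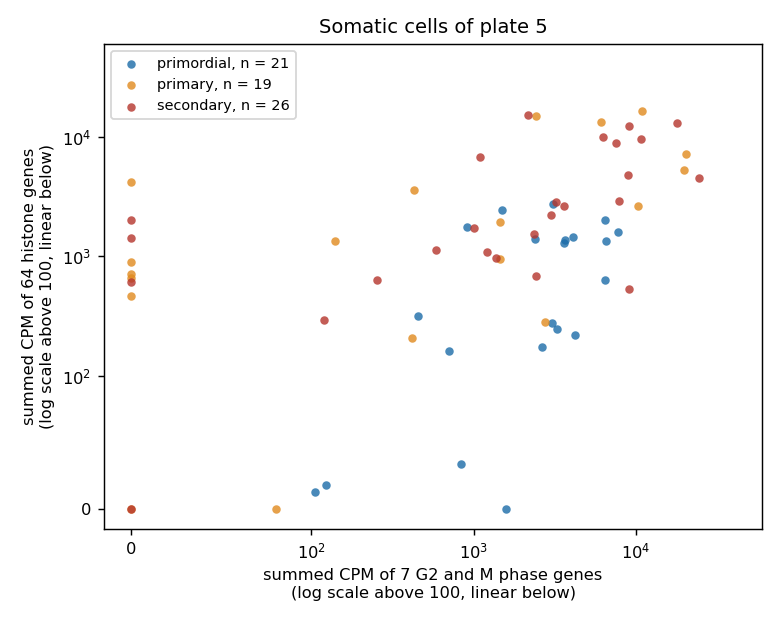
Summed CPM of the 64 histone genes against summed CPM of 7 G2 and M phase genes in each of the 66 somatic cells of plate 5, coloured by stage; both axes are logarithmic above 100 CPM and linear below. The 7 cells above the highest oocyte (9932 CPM) are primary or secondary, and the highest primordial cell is at 2723 CPM.

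Of the members, 11 pairs lie head to head with at most 1000 bases between them, and both partners stood lower in pooled oocytes in 7 pairs, both higher in 1 and in opposite directions in 3. Where both partners of a pair were compared on a plate, their log2 ratios had the same sign 8 times and opposite signs 5 times. These tallies were not run on unpaired members or on all genes, so they show nothing particular to pairs. Pooled signs were also counted where the interval held 0, as for *Hist1h2bl* (-4.44 to 1.57) and *Hist1h2ac* (-0.90 to 0.09). *Hist1h2bh* was higher in pooled oocytes (76.5 against 10.6 CPM) while its partner *Hist1h3f*, 659 bases away, stood at 4.93 against 7.85 CPM. The signs of this pair were opposite on each of plates 1, 2 and 5, where both were compared. Pooled over plates, *Hist1h2bc* (230.6 against 65.3 CPM) differed from *Hist1h2ac*, 250 bases away, at 8.78 against 11.6 CPM, but within plates both had the same sign on plates 1, 2, 4 and 6 and opposite signs on plate 5 (2.12 and -1.79). Both partners were lower in oocytes at *Hist1h2ae* and *Hist1h2bg* (1.83 against 72.8 CPM and 2.11 against 18.8 CPM) and at *Hist2h2ac* and *Hist2h2be* (0.15 against 2.34 CPM and 1.51 against 112.8 CPM). Both were higher at *Hist1h2ba* and *Hist1h2aa*, whose shared stretch is printed above.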

How the data were processed

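Single oocytes and single somatic cells were measured by SMART-Seq2 on 6 library plates. The authors deposited 1 table of estimated counts per gene and cell, from reads aligned to GRCm38, and read it into Seurat version 4. The aligner and counter are not given in the sources used here. Quality values in the deposited cell metadata are fractions of reads. Of 25149 rows, 27 named like dates, with 0.0743% of counts, were left out. Within each group, the cells' counts were added up and scaled to CPM over the 13266 genes with values on every plate. Depth per cell ran from 1223 to 489780 counts.

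No animal is named, so each group was 1 sample and no test was run between groups. Sums carry exact Poisson intervals, shares exact binomial (Clopper-Pearson) intervals, and ratios of sums the interval of the exact binomial split, at 95%. Genes with at least 5 CPM in either group and at least 4 counts were compared (the count minimum was added after the data were seen) and called at 2-fold. A group at 0 was set to a floor of 3 counts, and a bound that pointed against its own direction was no call. Members among the 12 highest of a cell type, the 5 highest and 5 lowest ratios of a within-plate comparison, and listed genes on every plate are named with values; *Hist1h1t*, *Hist1h2ba* and the paired genes were named after their values were seen where they fall outside this rule. The members and gene lists were chosen with earlier results of these data known.

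TMM (edgeR 4.0.16) and DESeq2 1.42.0 factors in R 4.3.3 were alternatives, on rounded sums. Python 3.11.15, numpy 2.4.6, pandas 2.3.3, scipy 1.17.1 and matplotlib 3.10.9 were used. On simulated counts for the secondary stage of plate 5, with 200 of 1188 genes changed, set log2 ratios of -2, -1, 1 and 2 gave medians of -2.02, -0.98, 1.00 and 1.99. The simulated cells differed by counting error (Poisson) alone, and only genes with many counts were scored. This checks the arithmetic only. It cannot show how exact the histone ratios are, where single cells held much of a group's counts and many members had few.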

Additional observations from a re-analysis of the deposited data

Results flagged for a closer look

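A primordial oocyte of plate 1 (replicate 5) stood at 3981.64 CPM of histone genes, far from the other cells of its group of 5. That value rests on 8 histone counts in a shallow library of 2009 counts. A transitioning somatic cell of plate 1 (replicate 3) stood at 13621.04 CPM, far from the other cells of its group of 8. In a screen by Dixon's rule for outlying values, 2 of 10 groups of suitable size held such a cell. Its chance rate of about 1 in 20 groups holds for normally spread values, which was not checked for these uneven levels. The 2 groups are therefore not read as more than chance. The transitioning cells of plate 4 gave a log2 ratio of oocytes to somatic cells of 0.68, while the other comparisons within plates were negative, and this difference was not tested. Of the rows not listed on every plate, *Hist1h2br* held 281.69 counts, *Hist1h2bq* 194.7 counts and *Hist2h3c1* 187.65 counts over the plates that list them. *Hist2h3c1*, an H3 gene, stood at 269.57 CPM in somatic cells of plate 6, above its level in oocytes of that plate.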

How the results depend on the processing

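Each group was 1 sample, so all values describe these cells only, and depth limits secondary oocytes most. The 18 changes of direction were among 120 recomputed ratios of summed counts, of which 37 stayed within the counting interval. The oocyte to somatic ratios of primordial cells of plate 1, of plates 4 and 6 and of secondary cells of plate 5, and that of primary to primordial somatic cells of plate 5, kept their direction under all alternatives run. The median cell was not among these alternatives, and in primordial cells of plate 1 it gave the opposite order (1070 CPM in oocytes against 802 CPM). On plate 4 the ratio fell to 0.02 without 1 oocyte. The cause of the changes was not tested. No paired analysis was possible because the replicate numbers only name cells and no test was run between groups. Adding all rows of the name pattern changed no ratio beyond its interval. Leaving out top cells for counts of members, for single members or from 1 group at a time, and factors across plates, were chosen after seeing the data.

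The log2 ratios of oocytes to somatic cells, given for primordial and primary cells of plate 1, plate 2, plate 4, secondary cells of plate 5 and plate 6 where they moved, were as follows. DESeq2 factors gave -2.25, -0.17, 1.0 (reversed), 2.09, -1.79 and -0.12. TMM factors left primordial cells within the interval and gave -0.33, 0.82 (reversed), 1.76, -1.93 and -0.14. Thinning to 12000 counts gave -2.88, -0.06, -0.38, 1.17, -3.24 and -0.58. Leaving out the cell with the most histone counts of each group gave -0.95, 0.72 (reversed), -0.65 and 1.73 for the first 4. The mean over cells gave -2.12, 0.53 (reversed), -0.46 and 1.08 for them. The total over all listed genes gave -2.96, -0.94, -0.33, 1.02 and -2.30 for all but plate 6. Without the member with the most counts they were -3.07, -2.28, -0.13 and 1.36, and -2.36 on plate 6. Members with whole values gave -3.04 in primary cells of plate 1, -1.61, 0.94, -2.49 and -1.55 on the later plates. Without the cells of conflicting codes, plate 1 gave -2.08 and -0.90.

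Among somatic stages of plate 1, transitioning against primordial cells gave -0.14 without top cells, -1.29 thinned, -1.12 as the mean over cells, -0.70 without the top member and -1.26 with whole-value members. Primary against transitioning cells gave -1.03 with DESeq2 factors, -0.05 without top cells, -0.39 thinned, -1.67 without conflicting cells, -0.43 as the mean, -1.38 with all listed genes, and reversed to 0.36 without the top member and 1.49 with whole-value members. Secondary against primary cells reversed to 0.10, 0.17, 0.42 and 0.15 without top cells, thinned, without conflicting cells and as the mean, and gave -0.79 and -1.15 with the changes of members. On plate 5, primary against primordial somatic cells gave 1.70 with DESeq2 and 1.69 with TMM factors, 2.59 without top cells, 2.27 thinned, 2.09 as the mean, 2.31 without the top member, 1.23 with whole-value members and 2.16 with all listed genes. Secondary against primary cells gave 0.24, 0.21, 0.29, -0.04 (thinned, reversed), 0.67 with whole-value members and 0.18 with all listed genes. Primary against primordial oocytes of plate 1 reversed to 0.89 with DESeq2 and 0.87 with TMM factors, 1.48 without top cells, 1.14 thinned, 1.10 as the mean, 0.45 without the top member and 0.40 with all listed genes, and gave -0.66 without conflicting cells.

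Of 60 counts of members, 18 moved by over 1.5 times. Each count is given with the share of all genes called so under the same setting. With TMM and DESeq2 factors, 8 members were higher (39.9% and 40.9% of all genes) and 8 lower (36% and 34.2%) of 24 in primary oocytes of plate 1. They left 3 of 40 higher in secondary oocytes of plate 5 (14.4% and 14.9%), and on plate 6 3 of 31 higher (29% and 30.3%) and 16 lower (45.8% and 43.6%). DESeq2 factors left 12 of 37 lower on plate 2 (52.3%) and 4 of 24 on plate 4 (46.6%). At 4-fold, 2 of 24 were higher in primary oocytes of plate 1 (13.9%), and 0 of 31 higher (11.4%) and 16 lower (46%) on plate 6. Without top cells, 8 of 19 were lower in primary oocytes of plate 1 (35.7%) and 2 of 29 higher on plate 6 (20.1%). With no minimum, 13 of 50 were lower on plate 4 (40.7%). Shares of somatic cells with any member fell to 70%, 85.1% and 80.4% in primordial, transitioning and primary cells at 5 counts or more, and to 82.4% in primordial cells when thinned.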
